A study of Oryza sativa with 12 samples.

Results

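KNOX (KNOTTED1-like homeobox) genes encode transcription factors of the TALE homeodomain class. Class I members are active in shoot and inflorescence meristems and in young stem tissue, are shut off where a leaf is initiated, and are known for keeping cells undifferentiated, in part by raising cytokinin and lowering gibberellin. Class II members are expressed more broadly, in differentiating organs. The genes examined were the rice class I members OSH1, OSH6, OSH15, OSH43 and OSH71, looked up by name among the symbols and RefSeq synonyms of genes to which a probe set of the array is assigned alone. Of these 5 names, 4 genes were found, with 6 of the 57381 probe sets on the array: OSH1 (LOC4333973, chromosome 3) and OSH43 (LOC4334261, chromosome 3) with 2 each, and OSH6 (LOC4325788, chromosome 1) and OSH71 (LOC4337701, chromosome 5) with 1 each. OSH15 is assigned only to a probe set listed with another gene as well, so no value is given for it. All probe sets assigned to a single gene represent 17905 genes.

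The arrays carried biotin-labelled RNA of field-grown rice (Oryza sativa), from KMR3 and from IL50-7, which the series title calls a high yielding introgression line. From each line the flag leaf and the young panicle, taken once it had fully emerged, were sampled, which makes 4 groups of 3 biological replicates. The labels used here name no treatment, donor or plant age, and do not say whether plants were pooled. All levels below are log2 intensities of a probe set after quantile normalization, floored at 0.26, and a background of log2 4.01 was taken from control probe sets for transcripts that are not added to such samples. A p-value is given as adjusted for 34316 tested probe sets, and a gene is said to have risen or fallen only where it was under 0.05. Levels of different probe sets cannot be set against each other.

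Before the values, facts about the arrays that bear on them are given. Trimmed mean intensities as deposited ran from 125 to 296 across arrays, and replicate arrays correlated at r = 0.896 to 0.961 across probe sets. Of 20 probe sets on in all leaf arrays of 1 line (over 2 above background) and at background in all of the other, 5 also split the panicle arrays. At 5 of 5 of these, KMR3 panicle replicate 3 and IL50-7 panicle replicate 2 read like the leaves of the other line, while the other 4 panicle arrays matched the leaves of their own. KMR3 panicle replicate 3 also shared high levels of the anther gene RAFTIN1 with IL50-7 panicle replicate 1 (11.06 and 10.98, against 4.92 to 7.77 in the other panicle arrays), a gene named here after its values were seen. Results that rest on panicle arrays are therefore also given without the pair of KMR3 panicle replicate 3 and IL50-7 panicle replicate 2 where that changed a call. Among leaf arrays, IL50-7 leaf replicate 1 had the highest mean of stem, rachis and secondary wall markers. It stood at 7.48, against 6.51 and 5.73 in the other IL50-7 leaves and 5.87 to 7.01 in KMR3. Gene lists are also given without this array, which the labels give no reason to drop. No other leaf array was left out of the lists. Calls gained this way thus rest on leaving out 1 array that stood out by its values.

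Panicle and flag leaf were compared within each line, to ask how the meristem genes differ between an organ formed from an inflorescence meristem and a mature leaf. All 4 matched class I genes were higher in the panicle in both lines. In KMR3, OSH1 rose at least 209-fold and OSH71 at least 20.3-fold. In IL50-7, OSH1 rose at least 195-fold and OSH71 15.5-fold. OSH43 and OSH6 rose from mean leaf levels of 1.55 to 4.01, at or under background, to mean panicle levels of 6.36 to 6.75. Single leaf arrays of both genes lay above background, up to 4.71. A fold given as "at least" is against the background, because all leaf arrays of that line lay below it. In bulk tissue, more cells of a type cannot be told apart from more RNA per cell.

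OSH1, the founding member of the family in rice and a gene required to maintain the shoot meristem, went from under background in leaf to a high signal in panicle. Its brighter probe set, of the type x_at, read 11.93, 11.82 and 11.39 in KMR3 panicle replicates 1 to 3 and 11.49, 11.52 and 11.85 in those of IL50-7. In flag leaf the same probe set read 3.05, 3.01 and 2.02 in KMR3 and 0.26, 0.81 and 1.12 in IL50-7. All 6 leaf arrays were thus under background and all 6 panicle arrays far above it, with no overlap. The fitted difference was 9.02 ± 0.32 SE in KMR3 (limma, adjusted p = 1.66e-08) and 10.89 ± 0.32 in IL50-7 (limma, adjusted p = 6.67e-09). As deposited, the intensities of this probe set were 2477 to 5491 in panicle and 0.728 to 8.86 in leaf. The type x_at marks a probe set whose probes may also match other transcripts, so that related KNOX sequences could contribute to it.

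The other OSH1 probe set, of the type at, carries no such mark and rose as well, by at least 32.5-fold (KMR3) or 86.9-fold (IL50-7) (limma, adjusted p = 6.18e-06 and 1.87e-06). It read 9.21, 9.42 and 8.46 in the KMR3 panicles and 9.75, 10.55 and 11.05 in the IL50-7 panicles, against 0.90 to 3.17 over the 6 leaf arrays. Every leaf array was under background here too.

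OSH71, also known as Oskn2, is a class I gene of meristems and developing floral organs. Its probe set read 8.32, 8.66 and 8.07 in the KMR3 panicles and 7.97, 8.59 and 8.12 in the IL50-7 panicles. In leaf it read 3.06, 3.48 and 3.68 in KMR3, all under background, and 3.96, 4.15 and 4.70 in IL50-7, where 2 of 3 arrays were just above it. The panicle and leaf arrays did not overlap in either line. The difference was 4.95 ± 0.30 SE in KMR3 and 3.96 ± 0.30 in IL50-7 (limma, adjusted p = 4.36e-07 and 1.72e-06).

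OSH43 was represented by a probe set of the type s_at, which marks probes shared by transcripts. It read 6.41, 6.96 and 6.72 in the KMR3 panicles and 6.68, 7.02 and 6.55 in those of IL50-7. In leaf it read 0.93, 1.85 and 4.36 in KMR3, where replicate 3 alone was above background, and 1.39, 1.06 and 2.19 in IL50-7. The panicle rise was 4.32 ± 0.71 SE in KMR3 (limma, adjusted p = 0.000497). In IL50-7 it was 5.20 ± 0.71, or at least 6.68-fold (adjusted p = 0.000135). The other OSH43 probe set, of the type at, did not show it: it ranged from 0.44 to 3.81, under background on all 12 arrays, and did not pass the filter on dim probe sets. The 2 probe sets of OSH43 therefore disagree, and the rise rests on the first.

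OSH6, a class I gene with the synonym HOS16, had the lowest fitted difference of the 4 in both lines. It read 6.44, 6.73 and 5.90 in the KMR3 panicles and 6.59, 6.66 and 5.98 in the IL50-7 panicles, all above background. In leaf it read 3.94, 0.88 and 4.36 in KMR3 and 3.71, 3.60 and 4.71 in IL50-7, with 1 array of each line above background. The organs did not overlap, although the leaf level itself is hardly measured. The rise was 3.30 ± 0.75 SE in KMR3 (limma, adjusted p = 0.00396) and 2.40 ± 0.75 in IL50-7 (limma, adjusted p = 0.0222). The call in IL50-7 was lost without IL50-7 leaf replicate 1 (adjusted p = 0.0566), IL50-7 leaf replicate 2 (0.071), IL50-7 panicle replicate 1 (0.0582) or IL50-7 panicle replicate 2 (0.0633), or without both panicle arrays in doubt (0.0728), while the difference stayed between 2.17 and 2.80 over 24 alternatives.

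**Figure D1:**
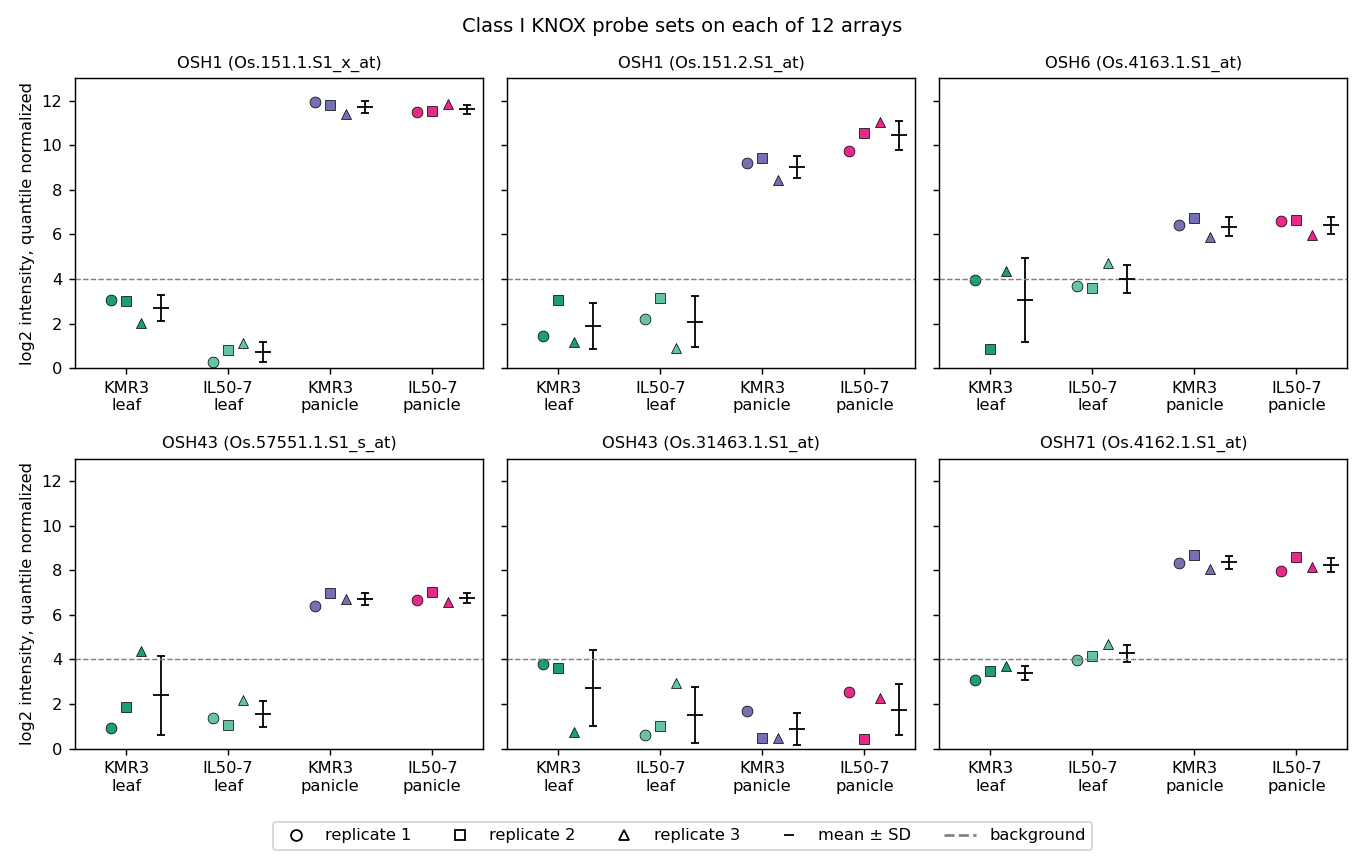
Normalized log2 intensity (vertical axis) of the 6 probe sets of OSH1, OSH6, OSH43 and OSH71 on each array of the 4 groups; markers give the replicate number, bars the mean ± SD (n = 3) and the dashed line the background of 4.01. In 5 of the 6 probe sets every panicle array lies above every leaf array, and the other OSH43 probe set stays under background throughout.

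Of the 6 probe sets 5 passed the filter on dim probe sets, and all 5 were called higher in panicle in each line, where 22.5% of all tested probe sets were called higher in KMR3 and 22.4% in IL50-7 (25% and 23.2% were called lower). Their panicle and leaf arrays did not overlap, as was so, with the panicle above, for 27.8% of tested probe sets in KMR3 and 25.6% in IL50-7. Since each of the 5 passed the filter through its panicle level, the count is given with all 6 as well: with no filter 5 of 6 were called. The median difference over the 4 genes was 4.63 in KMR3 and 4.58 in IL50-7, beside medians of -0.11 and -0.06 over all tested probe sets. Because most of the leaf levels lie under background, these are not exact sizes: with values floored at background the medians over the 4 genes were 3.46 and 3.34, beside -0.09 and -0.06 over all.

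Other readouts moved with organ in the same arrays. The 3' to 5' ratio of GAPDH, which rises as RNA degrades, was 2.54 to 6.32 on leaf arrays in 1 control design and 7.68 to 23.3 on panicle arrays. In the other GAPDH design the organs overlapped, at 1.52 to 12.4 and 0.93 to 20.0. The actin ratios overlapped in both designs, at 5.17 to 9.40 in leaf and 4.95 to 13.4 in panicle for the first, and at 5.85 to 13.6 and 7.99 to 29.4 for the second. Floral organ markers averaged log2 3.78 to 4.58 over 15 tested genes on leaf arrays, and 9.76 to 9.98 on panicle arrays. In KMR3 13 of 15 rose and in IL50-7 14, among them the floral MADS-box genes MADS7 and MADS6. The name MADS2 matched genes on chromosomes 1 and 7, and both are counted. The one on chromosome 7 stood at 9.34 to 10.4 on leaf arrays and 9.72 to 9.98 on panicle arrays. Likewise BC1, in the wall list that follows, stands for genes on chromosomes 3 and 9. Markers of stem, rachis and secondary wall, a list that matters because internodes express class I KNOX genes, rose in 5 of 5 genes in each line, from 5.73 to 7.48 in leaf to 8.99 to 10.16 in panicle, among them the cellulose synthases CESA4 and CESA9. Of these, 4 of 5 rose in IL50-7 without IL50-7 leaf replicate 1, and without both panicle arrays in doubt 4 were tested and 4 rose in each line. Anther, tapetum and pollen markers rose in 7 of 9 in KMR3 and 8 of 9 in IL50-7, from 3.48 to 4.15 in leaf to 7.48 to 9.53 in panicle. Without both panicle arrays in doubt 6 of 9 rose in KMR3, where the median difference went from 4.17 to 2.80, and 8 of 9 in IL50-7. Among the genes that rose were the tapetal genes RTS and C6, both under background on all 6 leaf arrays. Leaf photosynthesis markers fell in 6 of 8 in KMR3 and 5 of 8 in IL50-7, with averages of 11.25 to 11.61 in leaf and 8.74 to 10.18 in panicle. In KMR3 the count was 3 of 8 without both panicle arrays in doubt, and also 3 with deposited intensities or with array medians set equal. In IL50-7 it was 6 without those arrays and 3 without IL50-7 leaf replicate 1. Those that fell included SGR, which acts in chlorophyll breakdown, and the brighter probe set of CHLH, a subunit of the chlorophyll synthesis enzyme magnesium chelatase, while its dimmer probe set rose. Beside these marker counts, 22.5% of all tested probe sets rose and 25% fell in KMR3, and 22.4% and 23.2% in IL50-7. A count of 3 of 8 photosynthesis genes that fell is not set apart from such shares. The marker levels bear out the organ labels, and their part in the KNOX differences was not tested.

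The rest of the KNOX family did not move as 1 group. Of 5 other matched KNOX genes, 2 rose and 3 fell in the KMR3 panicle, and 1 rose and 3 fell in that of IL50-7. Over all tested probe sets 22.5% rose and 25% fell in KMR3, and 22.4% and 23.2% in IL50-7, and 5 genes are few to set against these shares. Without IL50-7 leaf replicate 1 the IL50-7 counts were 2 and 3. The median difference was -0.32 in KMR3 and -0.36 in IL50-7. On the deposited scale 2 rose and 1 fell in KMR3, with a median of 0.07, and 2 rose and 2 fell in IL50-7. With equal array medians 2 rose and 2 fell in KMR3, with a median of -0.10, and 1 rose and 2 fell in IL50-7. OSH3, a class I gene with 1 annotated gene between it and OSH1 on chromosome 3, rose by at least 5.34-fold (KMR3) or 4.65-fold (IL50-7) (limma, adjusted p = 3.9e-05 and 1.44e-05). Its panicle arrays read 6.0 to 6.67, and its 6 leaf arrays, at 0.26 to 2.56, lay under background.

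The class II genes HOS59 and OSH45 were bright in both organs and went the other way. HOS59 fell from 12.78 ± 0.03 to 11.56 ± 0.14 in KMR3 (SD, n = 3 each), by 2.33-fold, and by 2.28-fold in IL50-7 (limma, adjusted p = 8.11e-06 and 9.01e-06). OSH45 fell 2.30-fold and 2.22-fold (limma, adjusted p = 0.000325 and 0.000454), a call lost in KMR3 on the deposited scale (adjusted p = 0.0647). HOS58, a class II gene outside the rule for named genes, fell by 0.32 ± 0.12 SE in KMR3 and by 0.36 ± 0.12 in IL50-7 (limma, adjusted p = 0.0444 and 0.0286). Both calls for HOS58 were lost on the deposited scale, where its KMR3 difference turned to 0.07 (limma, adjusted p = 0.876), and with equal array medians. The median of all tested probe sets stood at 0.31 in KMR3 and 0.15 in IL50-7 on the deposited scale.

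HOS66, the class II gene with the widest spread, departed from the other class II genes. It read 9.41, 9.28 and 9.73 in the KMR3 panicles and 10.22, 9.04 and 8.30 in the IL50-7 panicles. Its KMR3 leaf arrays read 5.23, 6.66 and 2.48, and those of IL50-7 read 8.87, 5.47 and 4.09. The highest leaf value, in IL50-7 leaf replicate 1, overlapped the IL50-7 panicles. HOS66 rose 25.7-fold in KMR3 (limma, adjusted p = 0.00693), while the IL50-7 difference of 3.05 ± 1.18 SE was not called (adjusted p = 0.0543). KMR3 leaf replicate 3 lay under background, so that this fold is not an exact size. Without IL50-7 leaf replicate 1 the IL50-7 difference was 4.39 ± 1.0 and was called (limma, adjusted p = 0.00457), as it also was on the deposited scale (adjusted p = 0.0336).

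**Figure D2:**
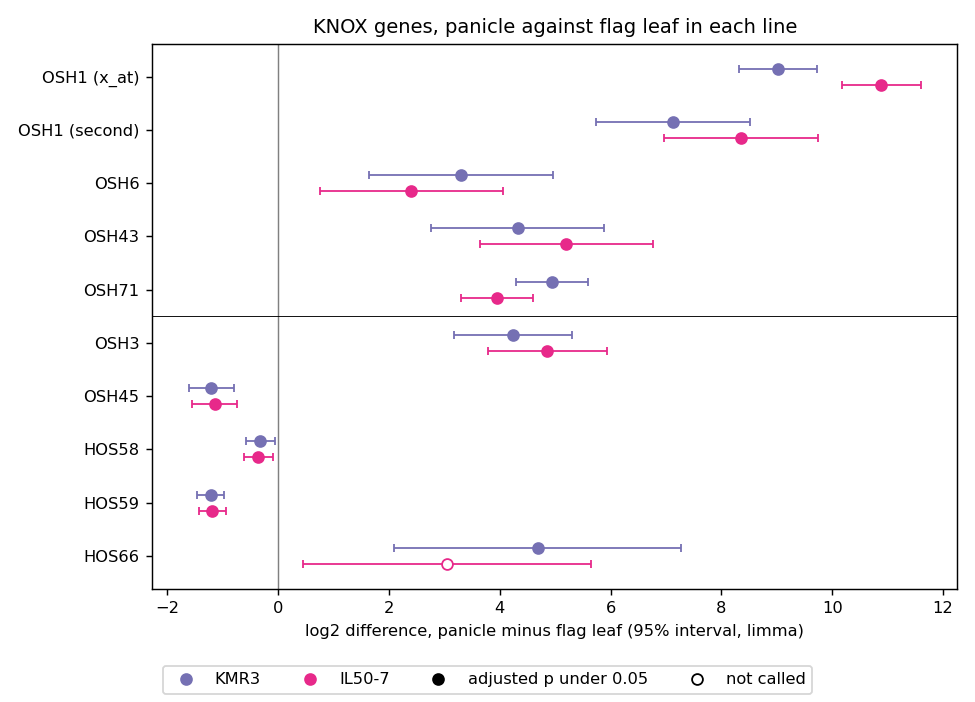
Log2 difference of panicle minus flag leaf (horizontal axis) with its 95% interval from limma, for the tested probe sets of the class I genes examined (above the line) and 5 other KNOX genes (below it), in KMR3 and IL50-7; filled points were called. The class I genes and OSH3 lie at 2.40 or more, HOS59, OSH45 and HOS58 below 0, and HOS66 above 0 with a wide interval.

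Genes that act with class I KNOX proteins were looked up by list. None of the 15 names of BELL-type partners, with which KNOX proteins form dimers, was found in the gene tables used here, so they were not analysed. Among 40 names of meristem and branching regulators 10 genes were tested, of which 4 rose and 2 fell in KMR3 and 3 rose and 2 fell in IL50-7, with medians of 0.21 and 0.22. Over all tested probe sets 22.5% rose and 25% fell in KMR3, and 22.4% and 23.2% in IL50-7, so that a count of 2 to 4 in 10 is not set apart from it. In IL50-7, 2 rose and 2 fell without IL50-7 leaf replicate 1, and likewise without both panicle arrays in doubt. FON1, a receptor kinase that limits floral meristem size, rose 2.99-fold and 3.47-fold (limma, adjusted p = 0.000194 and 7.85e-05). LOG, which makes active cytokinin and is known from the rice shoot meristem tip, fell 3.78-fold in KMR3 and 4.26-fold in IL50-7 (limma, adjusted p = 9.57e-05 and 5.09e-05). MOC2, a cytosolic fructose-1,6-bisphosphatase needed for tiller outgrowth, fell 4.24-fold and 5.50-fold (limma, adjusted p = 3.3e-05 and 9.76e-06). PLA3, which restrains the rate of leaf initiation, rose by 0.99 ± 0.27 SE and 0.85 ± 0.27 (limma, adjusted p = 0.00985 and 0.0228). The IL50-7 call of PLA3 was the one lost without IL50-7 leaf replicate 1 (adjusted p = 0.0538) or both panicle arrays in doubt (0.0918), and without the latter the KMR3 median of the list was -0.04. LOG and PLA3 each have a dimmer probe set, at 0.26 to 3.85 and 0.26 to 3.75. These lay under background on all arrays and were not tested. The probe sets of WOX4 and FZP, which act in meristem maintenance and spikelet meristem identity, were too dim to be tested. ASP1 and RCN1 did not pass the filter on mean level either. RCN1, named here after its values were seen, was not under background throughout. It read 6.23, 4.77 and 2.28 in the KMR3 panicles and 0.94, 0.26 and 0.26 in those of IL50-7, a difference that was not tested.

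A list of leaf and boundary factors, drawn up for repressors of class I KNOX genes, had 4 tested genes. Of these, RS2 and AS2 are named for such repressors in other plants. ROC5, a homeodomain gene known for restraining bulliform cells, and NAL1, known for leaf width, are not known as KNOX repressors, and neither was called in either line. In KMR3 2 of 4 rose, with a median of 1.40, and 1 without both panicle arrays in doubt, with a median of 1.28. In IL50-7 1 rose, with a median of 0.98, and 2 without IL50-7 leaf replicate 1, with a median of 1.53. Over all tested probe sets 22.5% rose in KMR3 and 22.4% in IL50-7, from which 1 or 2 of 4 are not set apart. RS2, the rice counterpart of maize ROUGH SHEATH2, read 9.13, 9.20 and 9.96 in the KMR3 panicles and 6.70, 7.97 and 5.61 in the KMR3 leaves, a 6.36-fold rise (limma, adjusted p = 0.0121). In IL50-7 the difference was 1.85 ± 0.75 SE (adjusted p = 0.0639), with leaf replicate 1 at 8.93 against 6.97 and 5.75 in the others. Without that leaf array it was 2.70 ± 0.63 (limma, adjusted p = 0.00536). The KMR3 call of RS2 was lost without both panicle arrays in doubt (adjusted p = 0.054), and the dimmer RS2 probe set was not called in either line. AS2, listed also as LBD6 and CRLL3 and named after the Arabidopsis factor that acts with the RS2 counterpart there, rose 10.6-fold in KMR3 and 7.74-fold in IL50-7 (limma, adjusted p = 0.000142 and 0.000391).

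Hormone genes tied to class I KNOX action gave 2 higher and 1 lower of 6 tested in KMR3, and 3 higher and 1 lower in IL50-7, where 4 were higher without IL50-7 leaf replicate 1. Among all tested probe sets 22.5% rose and 25% fell in KMR3, and 22.4% and 23.2% in IL50-7. The KMR3 counts of 2 and 1 of 6 are not set apart from these shares. In IL50-7 the 3 or 4 of 6 that rose are a larger share, but 6 genes are few to set against it. In KMR3, 3 were higher on the deposited scale, where the median was 0.97, and without both panicle arrays in doubt the median was 0.27. The median was 0.42 in KMR3 and 1.21 in IL50-7. The gibberellin synthesis genes split. GA20OX2, the semidwarf gene SD1, fell 4.14-fold and 4.29-fold (limma, adjusted p = 0.00105 and 0.0009). GA20OX3, from the same enzyme family, rose 6.39-fold and 9.47-fold (limma, adjusted p = 2.68e-05 and 6.47e-06). The LOG-like cytokinin genes were higher in panicle, LOGL1 by 1.52 ± 0.31 SE in KMR3 and 1.32 ± 0.31 in IL50-7 (limma, adjusted p = 0.00192 and 0.00458), and LOGL3 by 2.09 ± 0.32 in IL50-7 (adjusted p = 0.000274). In KMR3 LOGL3 stood at 0.72 ± 0.32 and was not called (limma, adjusted p = 0.082), though it was on the deposited scale (adjusted p = 0.0215). CYP734A4 and CYP734A6, brassinosteroid-inactivating enzymes known in rice as direct targets of OSH1, differed by 0.08 ± 0.41 SE and 0.11 ± 0.51 in KMR3 and by -0.22 ± 0.41 and 1.10 ± 0.51 in IL50-7, and none of these was called.

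**Figure D3:**
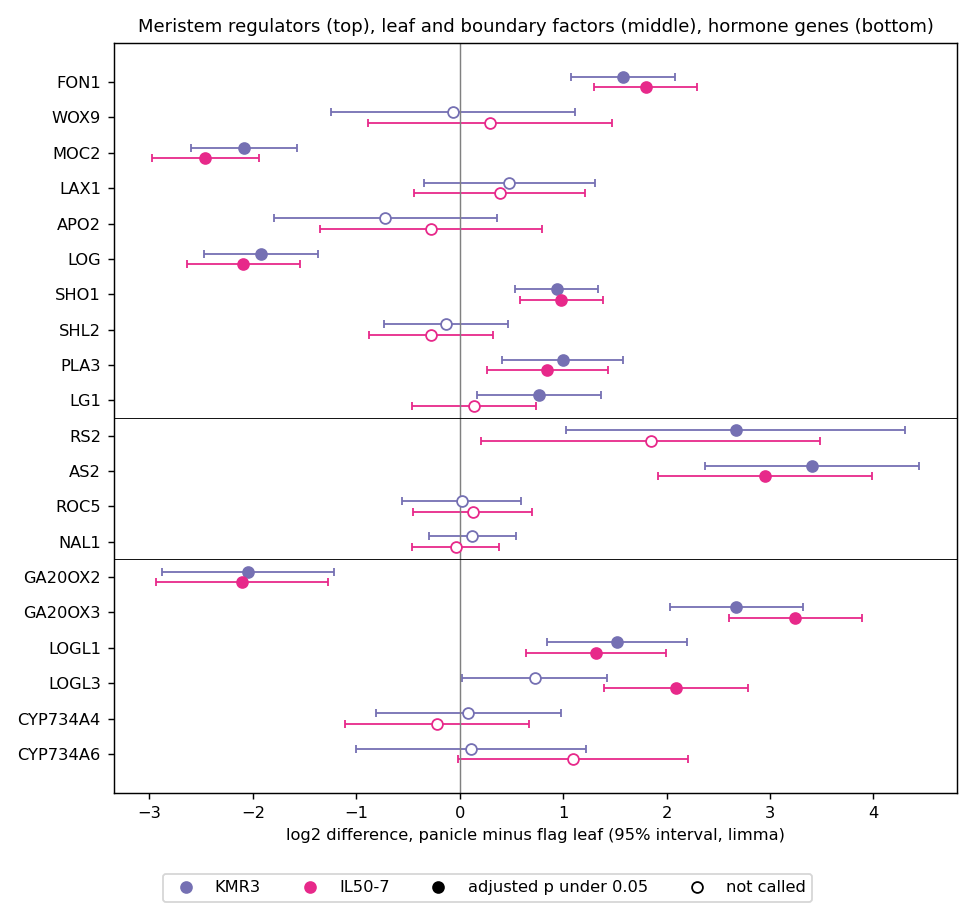
Log2 difference of panicle minus flag leaf (horizontal axis) with its 95% interval from limma, for tested meristem and branching regulators, leaf and boundary factors, and hormone genes, separated by lines, in KMR3 and IL50-7; filled points were called. FON1, AS2, GA20OX3 and LOGL1 lie above 0 and LOG, MOC2 and GA20OX2 below 0 in both lines.

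The lines were then compared within each organ, to ask whether the introgression line differs from KMR3 in these genes. In the panicle the brighter probe sets of the 4 genes stood close together in the lines. OSH1 averaged 11.71 ± 0.28 in KMR3 and 11.62 ± 0.20 in IL50-7, OSH71 8.35 ± 0.29 and 8.22 ± 0.33, OSH43 6.70 ± 0.27 and 6.75 ± 0.24, and OSH6 6.36 ± 0.42 and 6.41 ± 0.38 (SD, n = 3 each). The arrays of the lines overlapped for each of them. The 95% intervals of the difference, IL50-7 minus KMR3, were -0.81 to 0.61 for OSH1, -0.78 to 0.52 for OSH71, -1.52 to 1.62 for OSH43 and -1.60 to 1.71 for OSH6. All these values include both panicle arrays in doubt as to line. Without that pair the median difference over the 4 genes went from -0.02 to -0.25, beside 0.02 over all tested probe sets. None of the 4 was called then either.

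The other OSH1 probe set had a larger line difference in the panicle, which was not called either. All 3 of its IL50-7 arrays, from 9.75 up, lay above all 3 KMR3 arrays, up to 9.42, as was so for 5.15% of tested probe sets. Both arrays in doubt as to line are among them, KMR3 panicle replicate 3 at 8.46 and IL50-7 panicle replicate 2 at 10.55. With the line labels of that pair exchanged the lines would overlap, and no such fit was run. The difference of 1.42 ± 0.63 SE, or 2.67-fold, had an unadjusted p of 0.0459 in limma and did not pass the adjustment (adjusted p = 1). Its 24 alternatives gave 1.09 to 1.77, with 0 called and 13 at an unadjusted p under 0.05. The lowest of them, 1.09 ± 0.82, was without both panicle arrays in doubt. Neither OSH1 probe set was called, so whether the lines differ in panicle is not settled here. RNA quality readouts also varied among these arrays. In the GAPDH design that set the organs apart, the 3' to 5' ratio was 23.3, 16.0 and 17.6 on KMR3 panicle replicates 1 to 3. On those of IL50-7 it was 8.72, 18.7 and 7.68. In the other GAPDH design it was 1.07, 9.33 and 0.93, and 3.28, 10.1 and 20.0. The lines overlapped in these and in both actin designs. The part of these ratios in the OSH1 difference was not tested.

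In the flag leaf most KNOX values were at or under background. OSH71 had all IL50-7 arrays above all KMR3 arrays, as was so for 4.02% of tested probe sets, at 4.27 ± 0.39 against 3.40 ± 0.31 (SD, n = 3 each). That difference, at least 1.2-fold, was not called (0.86 ± 0.30 SE, limma unadjusted p = 0.0137, adjusted p = 0.799). The brighter OSH1 probe set was lower in IL50-7 on all arrays, as for 5.14% of tested probe sets, but every one of these values lay under background, so no fold is given (-1.96 ± 0.32 SE, adjusted p = 0.0829). It was called without KMR3 leaf replicate 3 (limma, adjusted p = 0.0296) and with array weights (adjusted p = 0.0432), and its difference was 0 once values were floored at background. OSH6 and OSH43 overlapped between the lines.

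In limma 0 of the 5 tested KNOX probe sets differed between the lines in leaf and 0 in panicle, beside 0.0729% of all tested probe sets called in leaf and 0% in panicle. At an unadjusted p under 0.05 there were 2 in leaf and 1 in panicle, beside 4.85% and 3.29% of all. For the panicle, that count rests on 2 arrays in doubt as to line, and without them it was also 0, while over all tested probe sets 128 were then called. Whether the line difference itself depends on organ (panicle minus leaf) was tested as an interaction, called for 0 of 5, beside 0.0291% of all, with 2 of 5 at an unadjusted p under 0.05 beside 3.91%. For OSH1 it was 1.87 ± 0.46 SE (limma, unadjusted p = 0.00176, adjusted p = 1) and for OSH71 -0.99 ± 0.42 (unadjusted p = 0.037), and both come from leaf values around or under background.

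**Figure D4:**
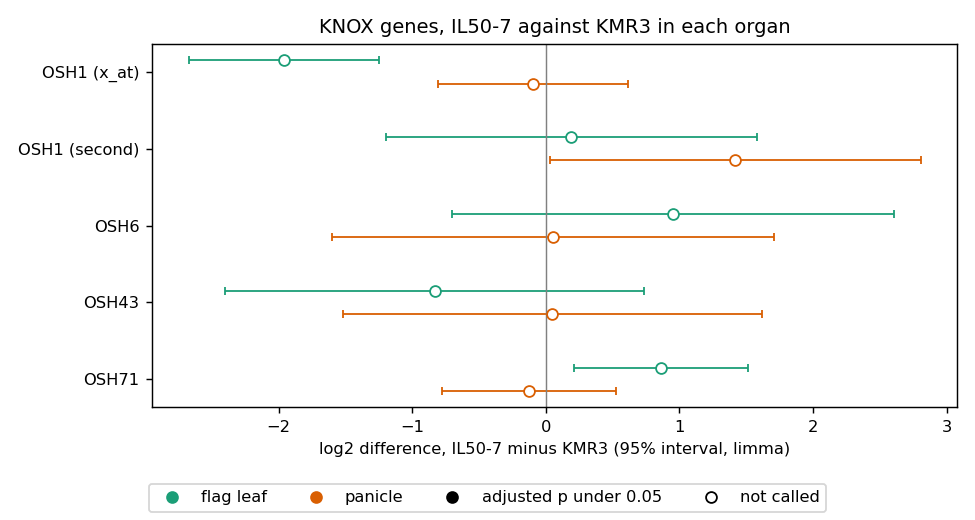
Log2 difference of IL50-7 minus KMR3 (horizontal axis) with its 95% interval from limma, in flag leaf and in panicle, for the 5 tested KNOX probe sets; open points were not called. In panicle 4 of the 5 probe sets lie between -0.13 and 0.05, the other OSH1 probe set lies at 1.42, and no point is filled.

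For the brightest probe set of each gene the levels of the 4 groups thus fell into a panicle pair and a leaf pair. The differences within a pair were not called, and the panicle pair includes both arrays in doubt as to line. The dimmer OSH43 probe set stayed under background in all groups. Within the 6 panicle arrays the 4 genes did not follow each other closely: Pearson's r between pairs of genes ran from -0.43 for OSH1 and OSH43 to 0.63 for OSH43 and OSH71, a description over 6 arrays of both lines. Across all 12 arrays the pattern most like that of OSH1, among 101 tested probe sets of genes whose RefSeq symbol is not a LOC number, was that of BZIP39 (r = 0.988), then GA20OX3 (0.976) and OsSPO11B (0.967). OSH71 was most like XAT2 (0.962), LEA19 (0.955) and OsSPO11B (0.952), OSH43 like OsSPO11B (0.974) and LEA19 (0.933), and OSH6 like XAT2 (0.922), FEN1A (0.876) and ACA1 (0.841). These likenesses rest on the step from leaf to panicle that all 12 arrays share. Within the 6 panicle arrays the highest values were 0.879 with RPL7A-1 for OSH1, 0.861 with P5CS1 for OSH6, 0.917 with ASA2 for OSH43 and 0.935 with OsSPO11B for OSH71.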

How the data were processed

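The authors deposited 1 linear intensity per probe set and array, for 57381 probe sets and 12 one-colour Affymetrix arrays. Per the submitters' processing notes GCOS 1.2 was used, in a role left unstated; for algorithm, scaling, background correction and genome build the sources used here give nothing. Intensities were log2 transformed, quantile normalized with the 187 control probe sets included and floored at the 10th percentile. Control probe sets were then left out and probe sets with a mean above the 40th percentile kept (34316). The background is the 95th percentile of 23 control probe sets. Differences were tested with limma 3.58.1 (R 4.3.3) in 1 model of 4 group means over 12 arrays with a variance trend, two-sided, with Benjamini-Hochberg adjustment over all tested probe sets at 0.05. The replicate number entered only as an alternative. The method was tested on simulated data.

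Members and gene lists were chosen with earlier results of these data known. Names came from the platform annotation and a RefSeq table (ASM3414082v1), which was used for names, chromosome numbers and gene order. All matched members are named, a gene being represented by its brightest tested probe set. Of other lists, up to 4 called genes with the largest panicle-leaf difference are named, of marker lists up to 2, and for likeness the 3 highest correlations. P-values measure the spread between biological replicates as labelled.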

Additional observations from a re-analysis of the deposited data

How the results depend on the processing

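Between organs, 4 or 5 KNOX probe sets were called under each of 24 alternatives in either line. OSH1, OSH43 and OSH71 were called in all alternatives that tested them, OSH6 in KMR3 in 24 and in IL50-7 in 19 of 24. With values floored at background, an alternative chosen after seeing the data, the OSH43 difference was 2.57 in KMR3 and 2.74 in IL50-7.

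Between lines, the count of KNOX probe sets called in leaf was 1 with array weights and 0 to 1 with 1 array left out, the 1 being OSH1 without KMR3 leaf replicate 3. Some differences that were not called changed sign, and the cause was not tested. Those of OSH71 in leaf and in its interaction kept their sign in all alternatives. For OSH6 in panicle the line difference was -0.15 with deposited intensities, -0.16 with array medians set equal, -0.10 with array weights and -0.30 once both panicle arrays in doubt were dropped. For OSH43 in panicle it was -0.18, -0.19 and, without those arrays, -0.0724. For OSH1 in panicle the mean of its probe sets gave 0.66, and its interaction was -0.10 with values floored at background. With 1 array left out, the panicle line difference ran from -0.26 to 0.0117 for OSH1, -0.17 to 0.27 for OSH6, -0.0936 to 0.18 for OSH43 and -0.31 to 0.0277 for OSH71. The leaf line difference ran from -0.14 to 1.61 for OSH6 and -1.56 to 0.16 for OSH43, and the interaction from -1.56 to 0.20 for OSH6 and -0.11 to 1.61 for OSH43.

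Replicate numbers showed no clear pairing of the arrays: over 18 same-numbered pairs the deviations from group means correlated at -0.328 to 0.4, 4 of them over 0.1. Differently numbered pairs ran from -0.473 to 0.592. With so few arrays and 2 in doubt as to line, a pairing is not excluded. With the replicate number as a block the counts were 5 and 5 between organs and 0 in each line comparison. Signal over background limits the leaf values, and 3 arrays a group limit the line comparisons.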
